A study of Mus musculus with 18 samples.

Results

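Gene expression was compared between ventral tegmental area (VTA) tissue of mice classed as susceptible to social defeat and VTA tissue of mice classed as unsusceptible. The comparison rests on 3 susceptible and 3 unsusceptible pools, chosen by their titles, which are 6 of the 18 arrays of the study. All mice were male C57BL/6J of 10.5 weeks with no transgene or drug given in the labels, and each pool joined tissue of 4 animals on 1 one-colour array. Susceptible and unsusceptible mice had both been defeated by an aggressor, so that neither group stands for an unstressed animal; 3 VTA pools of non-defeated control mice give that level, and the same groups were also sampled in the nucleus accumbens (NAc).

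The VTA is a midbrain nucleus whose dopamine neurons project to the NAc and the cortex, and it borders on serotonin nuclei, the interpeduncular nucleus, the Edinger-Westphal nucleus and the hypothalamus. In the social defeat model a mouse is exposed repeatedly to an aggressive male and then tested for avoidance of other mice, and a share of defeated animals does not develop avoidance. The firing of VTA dopamine neurons is known to be higher in avoidant than in non-avoidant mice in this model, and potassium channels, which lower excitability when they open, have been studied there.

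No probe passed the threshold between susceptible and unsusceptible VTA. Of 44505 probes tested with limma, 0 had an adjusted p under 0.05 (0% called), and the smallest adjusted p was 0.871. At an unadjusted p under 0.05 stood 2465 probes, which is 5.54% of those tested, with 1207 higher in susceptible pools (2.71%) and 1258 lower (2.83%). Leaving out unsusceptible pool 3 also gave 0 calls, with 1961 probes (4.41%) at an unadjusted p under 0.05. Leaving out unsusceptible pool 2 instead gave 139 calls (0.312%), 25 higher (0.0562%) and 114 lower (0.256%) in susceptible pools, covering 101 named genes, and each of the other 4 pools left out in turn gave 0. Values without unsusceptible pool 2 are given below to show how far a result depends on that pool. They come from the only fit of the 6 with calls and are not separate support for a difference. In what follows, levels are quantile-normalised log2 intensities, a difference is susceptible minus unsusceptible on that log2 scale with the standard error of the limma fit, and "p under 0.05" refers to the unadjusted p.

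The 6 arrays had median scanner intensities between 148.3 and 168.8. Unsusceptible pool 3 stood apart from the other VTA arrays: its highest correlation with any of them was 0.99, while the lowest correlation among the other 8 was 0.991. Its dopamine neuron markers, taken as the mean level of 17 measured genes, were at 9.47, against 10.98 and 11.64 in unsusceptible pools 1 and 2, and 11.38, 11.33 and 11.48 in the susceptible pools. The label of dissected VTA thus matched its defining markers in 5 of the 6 pools, and in unsusceptible pool 3 the markers were present at lower levels. A list of 16 genes enriched in thalamus, which was added after values had been seen and gets no test, had mean levels of 10.35, 9.01 and 11.26 in unsusceptible pools 1, 2 and 3, and of 9.73, 9.52 and 9.22 in the susceptible pools. Unsusceptible pools 1 and 3 were high in these genes and unsusceptible pool 2 was low, so the 3 unsusceptible pools spread on both sides of the susceptible ones. The levels of these lists differed between the group means. Whether the makeup of the dissected tissue differed, and what part it had in the results, was not tested. Fewer cells of a type and less RNA per cell cannot be told apart in tissue RNA.

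**Figure D1:**
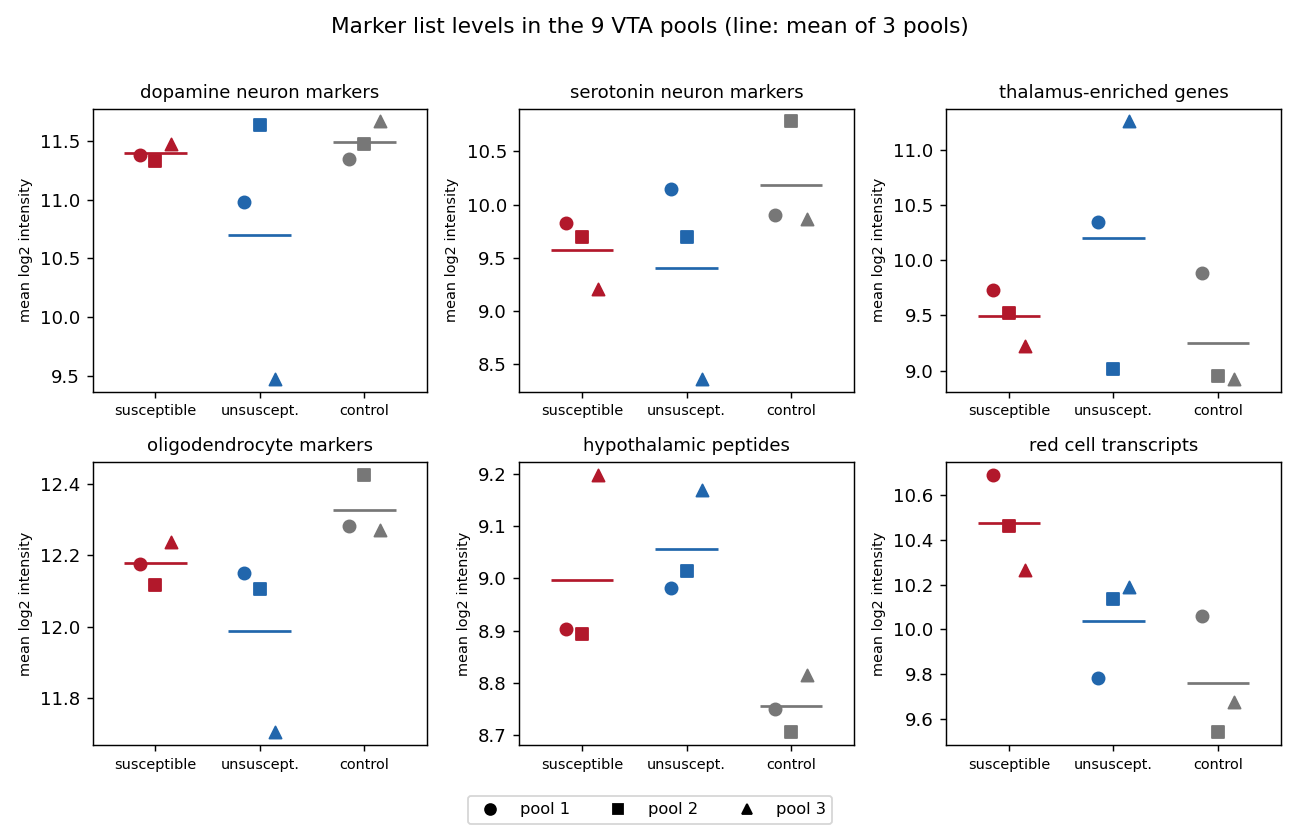
Mean log2 intensity of the measured genes of 6 lists in the 9 VTA pools, 1 point a pool, with a line at the mean of the 3 pools of a group. Unsusceptible pool 3 has the lowest dopamine (9.47), serotonin (8.36) and oligodendrocyte (11.70) levels and the highest thalamus-enriched level (11.26), while red cell transcripts are higher in the 3 susceptible pools (10.27 to 10.69) than in the 3 unsusceptible pools (9.78 to 10.19).

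All 17 measured dopamine neuron markers had a difference above 0, with a median of 0.74, and 12 of the 17 had p under 0.05, beside 2.64% of the 17274 named genes in that direction. With unsusceptible pool 3 left out the median was 0.11, with 15 of 17 above 0 and 0 of 17 at p under 0.05, beside 1.87% of named genes in either direction. Th encodes tyrosine hydroxylase, the rate-limiting enzyme of dopamine synthesis. Its level was 12.68, 12.46 and 12.55 in the susceptible pools and 11.97, 13.00 and 9.52 in the unsusceptible pools, with 12.49, 12.54 and 12.79 in the control pools. One unsusceptible pool lay above all susceptible pools and the other two below, so the groups overlapped. The difference was 1.07 ± 0.44 (adjusted p = 0.897) and 0.08 without unsusceptible pool 3.

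The dopamine transporter gene Slc6a3, which takes dopamine back into the neuron, stood at 13.97, 13.93 and 14.29 in susceptible pools and at 13.58, 14.31 and 11.13 in unsusceptible pools. The difference of 1.06 ± 0.42 (adjusted p = 0.895) became 0.12 without unsusceptible pool 3. Ddc, the aromatic amino acid decarboxylase that makes dopamine and serotonin, and Chrna6, a nicotinic receptor subunit of dopamine neurons, had the same order of unsusceptible pools, with differences of 0.87 ± 0.33 and 0.84 ± 0.32 that became 0.13 and 0.18. Sncg, the gamma-synuclein of dopamine and other neurons, was the 1 member of the 17 whose groups did not overlap, beside 4.61% of named genes with every susceptible pool above every unsusceptible pool. It measured 11.61, 11.77 and 11.97 in susceptible pools and 11.38, 11.58 and 10.04 in unsusceptible pools, a difference of 0.79 ± 0.25 (adjusted p = 0.895) that was 0.30 without unsusceptible pool 3.

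Ucn encodes urocortin, a peptide of the corticotropin-releasing factor family made chiefly in the Edinger-Westphal nucleus, and Cartpt encodes the CART peptide, which is abundant in the same neurons and in the hypothalamus and accumbens. Ucn was at 11.32, 10.79 and 11.36 in susceptible pools and at 10.23, 10.72 and 7.84 in unsusceptible pools, with control pools at 10.24, 10.08 and 11.21. Every susceptible pool lay above every unsusceptible pool, with pool 2 of both groups close together, and the control pools spanned both. The difference was 1.56 ± 0.41 (adjusted p = 0.871), a 2.95-fold higher mean, and 0.68 without unsusceptible pool 3. Cartpt was at 14.57, 14.08 and 14.65 in susceptible pools and at 13.57, 14.22 and 10.90 in unsusceptible pools, so the groups overlapped at pool 2. Its difference was 1.53 ± 0.47 (adjusted p = 0.871) and 0.54 without unsusceptible pool 3. With unsusceptible pool 2 left out in its place, Ucn (2.12, adjusted p = 0.0120), Cartpt (2.19, adjusted p = 0.0196), Th (1.82, adjusted p = 0.0197), Slc6a3 (1.71, adjusted p = 0.0330), Ddc (1.37, adjusted p = 0.0449) and Chrna6 (1.38, adjusted p = 0.0120) passed limma's threshold. In all, 8 of the 17 dopamine markers passed it, beside 0.0562% of all probes in that direction. Unsusceptible pool 2 had the highest dopamine marker level of the unsusceptible pools (11.64), and the list was chosen with earlier results known. The count therefore shows dependence on that pool and is not separate support.

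The stretch of 150 bases just before the start of Th, Ucn and Cartpt is shown because each of these 3 genes had its lowest value in unsusceptible pool 3. The sequences are RefSeq's on GRCm38.p6, 5′ to 3′ on the gene's strand, and capitals mark the cAMP response element TGACGTCA, searched on both strands. They lie at chr7:142899996-142900145 (minus strand) for Th, chr5:31138896-31139045 (minus) for Ucn and chr13:99900684-99900833 (minus) for Cartpt.
Th: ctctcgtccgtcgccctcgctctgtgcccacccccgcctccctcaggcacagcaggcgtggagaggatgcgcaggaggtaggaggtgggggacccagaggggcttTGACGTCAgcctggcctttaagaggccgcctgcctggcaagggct
Ucn: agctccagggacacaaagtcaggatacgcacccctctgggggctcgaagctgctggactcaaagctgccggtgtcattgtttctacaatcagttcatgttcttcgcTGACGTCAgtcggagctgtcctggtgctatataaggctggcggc
Cartpt: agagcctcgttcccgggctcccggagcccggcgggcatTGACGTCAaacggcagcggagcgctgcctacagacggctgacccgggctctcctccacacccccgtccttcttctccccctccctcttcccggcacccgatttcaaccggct
The element begins 45 bases before the start of Th, 44 before that of Ucn and 112 before that of Cartpt. Of 32851 RefSeq promoter windows of the same length, 447 (1.36%) hold it, and a match describes letters only. As the 3 genes were picked, their matches do not give its share among genes low in unsusceptible pool 3.

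Markers of tissue around the VTA went in several directions. Of 6 measured serotonin neuron markers, 5 had a difference above 0 (median 0.15) and 0 of 6 did without unsusceptible pool 3 (median −0.17). Tph2, the serotonin-synthesising hydroxylase of the raphe, was at 11.44, 11.00 and 9.49 in susceptible pools and at 12.28, 10.91 and 6.89 in unsusceptible pools, with 11.55, 13.21 and 11.46 in controls. The pools of either group varied by more than the groups did, and the difference of 0.62 ± 0.75 turned to −0.95 without unsusceptible pool 3. Slc6a4, the serotonin transporter, likewise had a difference of 0.05 ± 0.48 that was −0.70 without that pool, and was also below 0 without susceptible pool 1 (−0.31) or susceptible pool 2 (−0.09).

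Genes of excitatory forebrain neurons were lower in the susceptible mean, with the high values again in unsusceptible pools 1 and 3. Of 13 measured cortical and hippocampal excitatory markers, 11 had a difference below 0 and 4 had p under 0.05 in that direction (median −0.22, −0.14 without unsusceptible pool 3), beside 3.07% of named genes. Slc17a7, the vesicular glutamate transporter of cortical neurons, was at 7.74, 7.70 and 7.66 in susceptible pools and at 9.78, 7.31 and 9.28 in unsusceptible pools. Its difference of −1.09 ± 0.50 (adjusted p = 0.897) was −0.85 without unsusceptible pool 3. Camk2a, a calcium and calmodulin dependent kinase of excitatory synapses, differed by −0.71 ± 0.24. This was −0.30 without unsusceptible pool 3 and −1.12 (adjusted p = 0.00974) without unsusceptible pool 2. Nrgn, the postsynaptic calmodulin-binding neurogranin, differed by −0.50 ± 0.17, and also by −0.50 without unsusceptible pool 3.

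All 16 thalamus-enriched genes had a difference below 0 (median −0.84). With unsusceptible pool 3 left out the median was −0.15, with 3 of 16 above 0. Tnnt1, a troponin gene used as a thalamic marker in the mouse brain, was at 8.76, 8.82 and 8.56 in susceptible pools and at 9.98, 8.50 and 11.21 in unsusceptible pools, a difference of −1.18 ± 0.35 that was −0.52 without unsusceptible pool 3. Rasgrp1, an activator of Ras, was at 12.28, 12.04 and 11.69 in susceptible pools and at 13.40, 11.60 and 14.34 in unsusceptible pools, with a difference of −1.11 ± 0.37 (−0.50 without unsusceptible pool 3). In both genes unsusceptible pool 2 lay below every susceptible pool and the other unsusceptible pools above. Ntng1, a netrin-G gene of thalamocortical axons, differed by −0.45 ± 0.19 (−0.12 without unsusceptible pool 3). Prkcd and Gbx2, a protein kinase C gene and a homeobox gene of the thalamus that were both chosen after their values were seen, differed by −1.19 ± 0.66 and −0.99 ± 0.46. These were −0.29 and −0.32 without unsusceptible pool 3. With unsusceptible pool 2 left out instead, Rasgrp1 (−1.87, adjusted p = 0.000587), Tnnt1 (−1.88, adjusted p = 0.00084), Prkcd (−2.49, adjusted p = 0.00859) and Gbx2 (−1.80, adjusted p = 0.022) passed limma's threshold. In that fit 9 of the 16 thalamus-enriched genes passed it, all lower, beside 0.256% of all probes in that direction. The list was added after values had been seen, so the count shows dependence on that pool and is not separate support.

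Hypothalamic peptide genes had a median difference of −0.05 over 13 measured members. Hcrt, which encodes the orexin precursor of lateral hypothalamic neurons, was at 8.05, 8.16 and 12.52 in susceptible pools and at 9.81, 9.67 and 12.10 in unsusceptible pools, while the 3 control pools were at 7.88, 7.76 and 7.88. Pool 3 of both defeated groups was high, unsusceptible pools 1 and 2 were intermediate, and the difference of −0.95 ± 0.71 (adjusted p = 0.948, −0.17 without unsusceptible pool 3) lay within the spread of the pools. Avp, the vasopressin gene, was close to background, at 7.28, 6.97 and 7.19 in susceptible and 7.31, 7.70 and 7.61 in unsusceptible pools. Its groups did not overlap (−0.39 ± 0.11, adjusted p = 0.871, −0.36 without unsusceptible pool 3), and susceptible pool 1 lay just under unsusceptible pool 1.

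**Figure D2:**
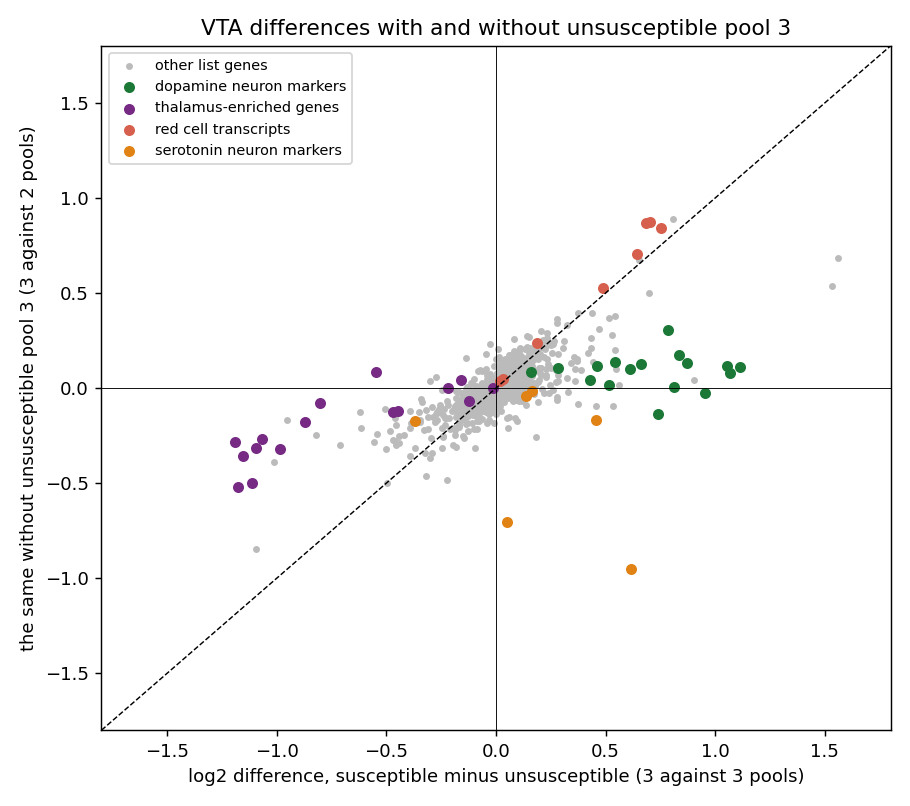
Log2 difference, susceptible minus unsusceptible VTA, of each list gene with all 6 pools (x axis) and without unsusceptible pool 3 (y axis), with the dashed line at equal values. Dopamine markers move from a median of 0.74 towards 0 and thalamus-enriched genes from −0.84 towards 0, while red cell transcripts stay on the line or above it.

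The 15 named genes with the smallest p in each direction had differences of modest size. In the 15 higher genes they ran from 0.34 to 1.56, with p between 7.00e-05 and 0.00186, and in the 15 lower genes from −0.74 to −0.34, with p between 0.000168 and 0.00155. All 30 had an adjusted p of 0.871. The groups did not overlap for 27 of the 30, which follows from how they were ranked. Unsusceptible pool 3 was the unsusceptible pool farthest from the susceptible ones in 24 of the 30. Without it all 30 kept their direction with p under 0.05, at 0.22 to 0.88 for the higher and −0.45 to −0.25 for the lower genes, and an adjusted p of 0.9997. The 30 were picked for small p with the remaining pools included, so that count was favoured in advance and is not separate support. Of 19 of these genes with a further probe, 5 had another probe at p under 0.05 in the same direction and 12 had another probe of opposite sign, none of the latter at p under 0.05.

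**Figure D3:**
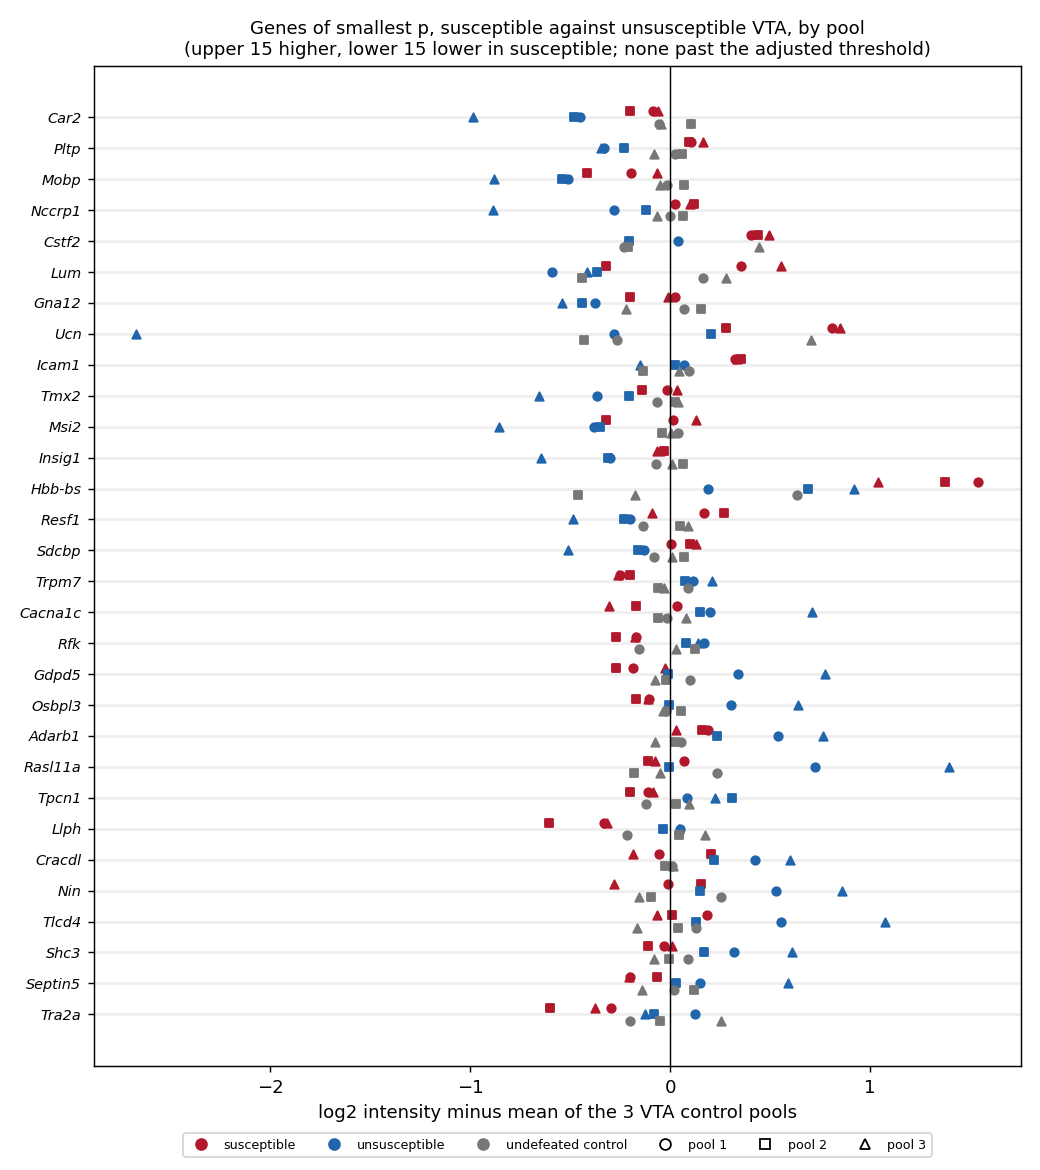
Levels of the 30 genes of smallest p in the 9 VTA pools, as log2 intensity minus the mean of the 3 control pools; colours give the group and shapes the pool. Red (susceptible) and blue (unsusceptible) points are apart for 27 of the 30 genes, and the unsusceptible triangle (pool 3) is the farthest from red in 24.

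Car2, a carbonic anhydrase abundant in oligodendrocytes, was at 11.81, 11.70 and 11.84 in susceptible pools and at 11.45, 11.42 and 10.91 in unsusceptible pools, with controls at 11.84, 12.01 and 11.85. Susceptible pools lay beside the controls and every unsusceptible pool lay below both, with a difference of 0.52 ± 0.11 (adjusted p = 0.871) that was 0.35 without unsusceptible pool 3. A second, dimmer Car2 probe gave −0.06. Mobp, a structural myelin protein, was at 13.03, 12.81 and 13.16 in susceptible pools and at 12.72, 12.69 and 12.35 in unsusceptible pools (0.42 ± 0.10, adjusted p = 0.871). All 4 further probes of Mobp had positive differences.

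Over the 19 measured oligodendrocyte markers, 18 had a difference above 0 with a median of 0.18, 6 had p under 0.05 (2.64% of all named genes) and 3 had every susceptible pool above every unsusceptible pool (4.61%). Without unsusceptible pool 3 the median was 0.03 and 10 of 19 lay above 0. Mog, a myelin surface glycoprotein, was at 11.88, 11.66 and 11.72 in susceptible pools and 11.60, 11.48 and 11.26 in unsusceptible pools (0.31 ± 0.10, adjusted p = 0.895), with all control pools higher, at 12.12, 12.18 and 12.01. Trf, the transferrin of oligodendrocytes, differed by 0.35 ± 0.13 and Gjb1, the connexin of myelinating cells, by 0.37 ± 0.14, or 0.16 and 0.15 without unsusceptible pool 3, and both had overlapping groups. Mbp, the major myelin basic protein, sat near the top of the scale on its brightest probe, at 15.98 to 16.10 in the 6 pools. Its difference there of 0.02 ± 0.06, which was −0.020 without unsusceptible pool 3, has little room to vary. Dimmer Mbp probes gave 0.36 ± 0.13, 0.23 ± 0.15 and −0.02 ± 0.09, or 0.20, 0.04 and −0.02 without unsusceptible pool 3. Oligodendrocyte precursor markers had a median of 0.17 over 7 genes, or 0.07 without that pool.

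Pltp, the phospholipid transfer protein, was at 8.38, 8.37 and 8.44 in susceptible pools and at 7.95, 8.05 and 7.93 in unsusceptible pools (0.42 ± 0.09, adjusted p = 0.871). Its 3 unsusceptible pools lay close together, and the difference was 0.40 without pool 3 of that group. Its 2 other probes gave 0.18 and 0.15. Insig1, which retains the sterol sensor in the endoplasmic reticulum, differed by 0.38 ± 0.10 (0.26 without unsusceptible pool 3), with a further probe in the same direction at p under 0.05 and one of opposite sign. Cholesterol synthesis genes had a median of 0.0075 over 17 members, and the enzyme gene Hsd17b7 was lower in every susceptible pool (−0.24 ± 0.11).

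Among the other higher genes, Lum, the collagen-binding lumican of the meninges and vessel walls, was at 8.66, 7.98 and 8.85 in susceptible pools and at 7.71, 7.94 and 7.88 in unsusceptible pools (0.65 ± 0.17, 0.67 without unsusceptible pool 3). Susceptible pool 2 lay only just above the highest unsusceptible pool. Icam1, the leukocyte adhesion molecule of endothelium, was at 8.42, 8.45 and 8.43 in susceptible pools against 8.16, 8.12 and 7.94 in unsusceptible and 8.19, 7.96 and 8.14 in control pools (0.36 ± 0.10, adjusted p = 0.871). The susceptible pools were above both other groups. Cstf2, a cleavage stimulation factor of messenger RNA 3′ ends, was at 12.37, 12.40 and 12.45 in susceptible and 11.998, 11.76 and 11.75 in unsusceptible pools (0.57 ± 0.15), and a dim second probe gave a value of opposite sign.

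The remaining higher genes were Nccrp1, an F-box related gene (0.51 ± 0.13), Msi2, an RNA-binding protein of progenitor cells (0.47 ± 0.13), Resf1 (0.42 ± 0.12), Gna12, a G protein alpha subunit (0.39 ± 0.10), Tmx2, a thioredoxin-related membrane protein (0.37 ± 0.10), and Sdcbp, the syndecan adaptor syntenin (0.34 ± 0.10). The 2 further probes of Resf1 were brighter and gave −0.03 and 0.03, and the brighter probe of Tmx2 gave −0.04, so these genes rest on 1 probe. Without unsusceptible pool 3 the 6 differences were between 0.22 and 0.34.

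Among the 15 lower genes were 3 channels. Trpm7, a cation channel fused to a kinase, was at 7.30, 7.35 and 7.29 in susceptible pools and at 7.67, 7.63 and 7.76 in unsusceptible pools (−0.37 ± 0.08, adjusted p = 0.871, −0.33 without unsusceptible pool 3). The pools of each group lay close together, with controls between 7.49 and 7.64, but the probe is near the median brightness of 7.39, where background compresses differences. A brighter Trpm7 probe gave −0.24 and another dim one 0.02. Cacna1c, the pore subunit of an L-type calcium channel, was at 8.49, 8.28 and 8.15 in susceptible and 8.65, 8.60 and 9.17 in unsusceptible pools (−0.50 ± 0.12, adjusted p = 0.871, −0.32 without unsusceptible pool 3). Of its 6 dimmer probes, 5 had the opposite sign with p above 0.05. Tpcn1, an endolysosomal two-pore channel, differed by −0.34 ± 0.09 on a dim probe and by −0.05 on its brightest one.

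Rfk, the riboflavin kinase, was at 7.54, 7.44 and 7.53 in susceptible pools and at 7.87, 7.79 and 7.85 in unsusceptible pools (−0.34 ± 0.08, −0.33 without unsusceptible pool 3). Adarb1, which edits adenosine in glutamate receptor transcripts, was at 8.08, 8.05 and 7.92 against 8.43, 8.13 and 8.66 (−0.39 ± 0.10), and its second probe gave −0.54. Both defeated groups lay above the 3 control pools for Adarb1, at 7.95, 7.91 and 7.82, except for susceptible pool 3. Rasl11a, a small GTPase, had the largest negative difference of the 15, at −0.74 ± 0.19. It was at 7.72, 7.54 and 7.58 in susceptible and 8.38, 7.65 and 9.05 in unsusceptible pools, which overlap, and the difference was −0.40 without unsusceptible pool 3.

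The other lower genes were Nin, the centrosomal ninein (−0.56 ± 0.15), Tlcd4 (−0.54 ± 0.15), Gdpd5, a glycerophosphodiester phosphodiesterase (−0.53 ± 0.14), Osbpl3, an oxysterol-binding protein (−0.44 ± 0.11), Llph (−0.44 ± 0.12), Cracdl (−0.43 ± 0.12), Shc3, a neuronal adaptor of receptor tyrosine kinases (−0.41 ± 0.11), Septin5, a septin at synaptic vesicles (−0.41 ± 0.11), and Tra2a, a splicing factor (−0.40 ± 0.11). In Nin, Tlcd4, Gdpd5 and Osbpl3 unsusceptible pool 2 lay nearest to the susceptible pools and pool 3 farthest. Without unsusceptible pool 2 these 4 passed limma's threshold, at −0.74 (adjusted p = 0.0247), −0.77 (adjusted p = 0.00784), −0.72 (adjusted p = 0.00966) and −0.60 (adjusted p = 0.0103). Of the other genes of smallest p, so did Car2 (0.60, adjusted p = 0.0198), Nccrp1 (0.66, adjusted p = 0.0163), Cacna1c (−0.60, adjusted p = 0.0469), Adarb1 (−0.53, adjusted p = 0.0120) and Rasl11a (−1.10, adjusted p = 0.000847), besides Ucn. For Tra2a the unsusceptible pools were at 7.89, 7.68 and 7.64, with pool 3 the nearest to the susceptible ones, and the difference was −0.45 without it.

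Red cell transcripts differed in a pattern of their own. All 8 measured members had a difference above 0, with a median of 0.57, 5 of 8 had p under 0.05 (2.64% of all named genes) and 4 of 8 had every susceptible pool above every unsusceptible pool (4.61% of all named genes). Those 4 were the globin genes Hbb-bs, Hbb-bt, Hba-a1 and Hbb-b2 (0.49 ± 0.19), and the 5 at p under 0.05 were these and Alas2. The 4 globin genes kept nearly the same order of pools, so they are not separate observations. The other members were in neither count. Without unsusceptible pool 3 the median was 0.61 with 5 of 8 at p under 0.05, beside 1.87% of named genes. Hbb-bs, an adult beta-globin, was at 15.59, 15.20 and 15.07 on its brightest probe in susceptible pools and at 14.12, 14.71 and 14.92 in unsusceptible pools, with controls at 14.80, 13.63 and 13.89. Every susceptible pool lay above every unsusceptible pool, and susceptible pool 1 was the highest of all 9. The difference was 0.70 ± 0.22 (adjusted p = 0.895), a 1.63-fold higher mean, and 0.87 without unsusceptible pool 3. The 9 probes of Hbb-bs ran from 0.70 to 0.85.

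Hba-a1, an alpha-globin, was at 14.93, 14.68 and 14.50 in susceptible and at 13.53, 14.13 and 14.39 in unsusceptible pools (0.68 ± 0.21, adjusted p = 0.895), again without overlap. Hbb-bt, the other adult beta-globin, differed by 0.75 ± 0.25, and since the copies are near-identical its probe can also read Hbb-bs. Alas2, the heme synthesis enzyme of red cell precursors and reticulocytes, was at 9.72, 9.56 and 8.93 against 8.47, 8.93 and 8.88, a difference of 0.64 ± 0.19 (adjusted p = 0.871) with pools that meet at 8.93. Over all 16 probes of globin genes the median was 0.72, ranging from −0.20 to 0.85, and 12 of 16 had every susceptible pool above every unsusceptible pool, beside 5.07% of all probes. These 12 are not separate observations, as 9 of them are probes of Hbb-bs. The embryonic globins on the array were near background.

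The starts of the 2 adult beta-globin genes are shown because both genes had every susceptible pool above every unsusceptible pool on their brightest probe. The 150 bases before each start, from RefSeq on GRCm38.p6, lie on the minus strand at chr7:103827929-103828078 for Hbb-bs and chr7:103813924-103814073 for Hbb-bt, with the CCAAT box in capitals on either strand.
Hbb-bs: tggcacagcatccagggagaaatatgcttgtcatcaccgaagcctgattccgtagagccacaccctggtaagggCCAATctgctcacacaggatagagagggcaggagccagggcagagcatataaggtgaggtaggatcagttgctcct
Hbb-bt: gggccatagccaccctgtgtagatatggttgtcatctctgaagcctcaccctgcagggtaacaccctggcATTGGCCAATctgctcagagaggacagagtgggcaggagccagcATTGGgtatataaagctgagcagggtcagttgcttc
The box begins 76 bases before the start of Hbb-bs and 80, 75 and 36 bases before that of Hbb-bt, where the first 2 matches adjoin on opposite strands. The 2 windows are identical at 115 of 144 aligned bases (79.9%). CCAAT is a common motif, present in 8047 of 32851 windows of this length (24.5%).

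Markers of other blood and vessel cells were less uniform. Neutrophil granule genes had a median of 0.08 over 12 members. S100a8, a calcium-binding alarmin of neutrophils, was at 8.56, 7.98 and 8.96 in susceptible pools and at 8.57, 7.87 and 7.47 in unsusceptible pools, against 7.20, 6.93 and 6.97 in controls. All 6 defeated pools lay above the controls and the defeated groups overlapped (0.53 ± 0.26, adjusted p = 0.904, 0.28 without unsusceptible pool 3). Its partner S100a9 differed by 0.52 ± 0.26 (adjusted p = 0.91) with the same order of groups.

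Lcn2, the iron-scavenging lipocalin of neutrophils and reactive astrocytes, was at 8.58, 8.81 and 8.58 in susceptible pools and at 8.90, 7.41 and 7.56 in unsusceptible pools, with controls between 7.01 and 7.20. Unsusceptible pool 1 was the highest and the other two unsusceptible pools lay near the controls (0.70 ± 0.30, adjusted p = 0.897). Endothelial and tight junction markers had 16 of 19 differences above 0 with a median of 0.08. Of the 19, 0 had p under 0.05, beside 2.64% of named genes higher and 3.07% lower. Pecam1, an endothelial adhesion molecule, did not overlap between groups but differed by only 0.23 ± 0.12. Pericyte and vascular wall markers had a median of 0.0071 over 14 genes, and the matrix proteoglycan gene Dcn differed by 0.55 ± 0.20 with overlapping pools.

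Other glial lists gave small medians. Of 17 astrocyte markers 13 had a difference above 0 (median 0.03, or 0.13 with median scaling in place of quantile normalisation). Aqp4, the water channel of astrocyte endfeet, was at 12.14, 11.99 and 12.31 in susceptible and 11.89, 11.87 and 11.37 in unsusceptible pools (0.43 ± 0.14, adjusted p = 0.895, 0.26 without unsusceptible pool 3). Slc1a3, the astrocyte glutamate transporter, went the other way, at 13.36, 13.40 and 12.98 against 13.47, 13.45 and 13.75 (−0.31 ± 0.09, adjusted p = 0.871), and neither gene overlapped between groups. Microglia markers had a median of 0.03 over 14 genes. Choroid plexus and ependymal markers had a median of −0.0040 over 10 genes, and their lead gene Ttr, the transthyretin of choroid plexus, ranged from 9.36 to 11.66 within the susceptible group alone (0.81 ± 0.53, adjusted p = 0.931).

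Voltage-gated potassium channel subunits were measured for 41 genes, of which 28 had a difference below 0 (median −0.07, −0.02 with median scaling). Of the 41, 6 had p under 0.05 and lay lower in susceptible pools (3.07% of named genes), 0 lay higher at that p, and 4 had every susceptible pool below every unsusceptible pool, beside 4.66% of named genes. Without unsusceptible pool 3 the median was −0.07 and 2 of 41 were lower at p under 0.05, beside 1.87% of named genes. The study is known to have reported potassium channels of the VTA from these samples, so the list is not independent evidence of its direction.

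Kcnf1, a modifier subunit of voltage-gated channels, was at 9.92, 9.97 and 9.52 in susceptible pools and at 10.22, 9.89 and 10.64 in unsusceptible pools, with controls at 9.74, 9.49 and 9.63. Unsusceptible pools 1 and 3 lay above all other pools and unsusceptible pool 2 lay among the susceptible ones (−0.44 ± 0.15, adjusted p = 0.895, −0.25 without unsusceptible pool 3). Kcnq3, a subunit of the M-current channel, was at 7.71, 7.98 and 7.79 against 8.06, 7.91 and 8.20 (−0.23 ± 0.11, adjusted p = 0.897), also with an overlap at pool 2. Kcnh3, an ether-a-go-go family channel, was near background with a difference of −0.09 ± 0.09. Kcnk4, a mechanosensitive two-pore domain channel, differed by −0.06 ± 0.09, which was 0.011 without susceptible pool 1.

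Kcnc1, a fast-spiking delayed rectifier, was at 9.94, 9.88 and 9.65 in susceptible pools and 10.34, 9.89 and 10.92 in unsusceptible pools (−0.56 ± 0.16, adjusted p = 0.871, −0.29 without unsusceptible pool 3). Kcnip3, a calcium-binding partner of A-type channels, did not overlap, at 9.94, 10.18 and 9.97 against 10.19, 10.29 and 10.35 (−0.25 ± 0.10, adjusted p = 0.895). Its difference was −0.21 without unsusceptible pool 3. Inward rectifier, two-pore and calcium-activated potassium channels had 19 of 31 differences below 0 (median −0.04, but 0.01 with median scaling). Of the 31, 3 had p under 0.05 below 0 and 1 above, beside 3.07% and 2.64% of named genes.

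Kcnk12, a two-pore domain subunit, was at 7.93, 7.91 and 7.98 in susceptible and 8.24, 8.32 and 8.12 in unsusceptible pools (−0.29 ± 0.11, −0.34 without unsusceptible pool 3). Kcnj12, a strong inward rectifier, and Kcnmb4, an auxiliary subunit of the large-conductance calcium-activated channel, differed by −0.42 ± 0.14 and −0.54 ± 0.19, or −0.25 and −0.24 without unsusceptible pool 3, with pool 2 of the unsusceptible group inside the susceptible range. Kcnc1 (−0.80, adjusted p = 0.00955), Kcnj12 (−0.63, adjusted p = 0.0236) and Kcnmb4 (−0.82, adjusted p = 0.0236) passed limma's threshold without unsusceptible pool 2. The high levels of Kcnf1, Kcnc1, Kcnj12 and Kcnmb4 sat in the same 2 unsusceptible pools as those of the thalamus-enriched genes, and the part of tissue makeup in them was not tested. Sodium, calcium and HCN channel subunits had a median of −0.01 over 30 genes, with Cacna1c the gene of smallest p.

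**Figure D4:**
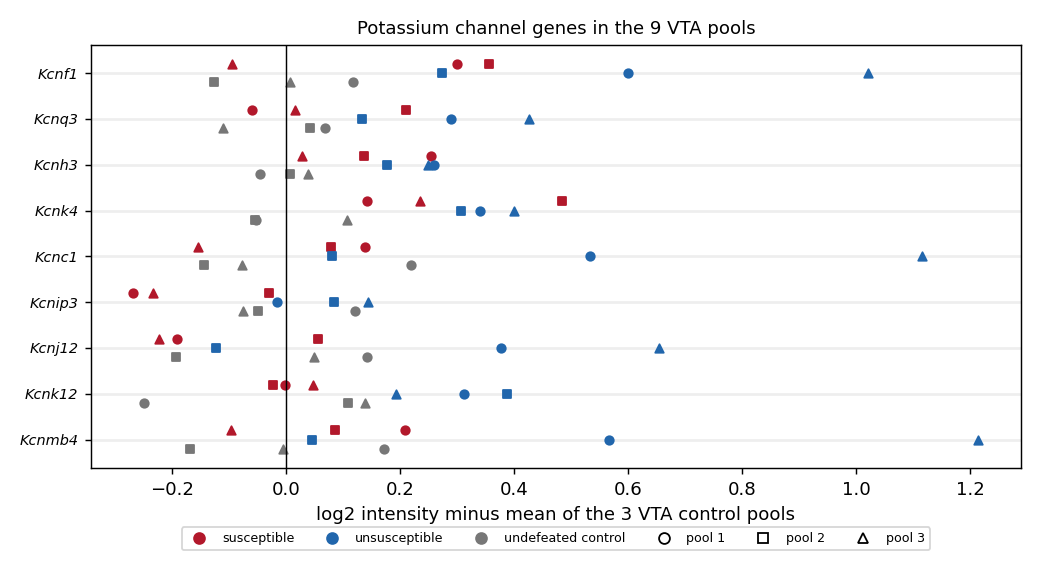
Log2 intensity of 9 potassium channel genes in the 9 VTA pools minus the mean of the 3 control pools; colours give the group and shapes the pool. For Kcnf1, Kcnc1, Kcnj12 and Kcnmb4 the unsusceptible pools 1 and 3 lie to the right and unsusceptible pool 2 lies among the susceptible pools, while Kcnip3 and Kcnk12 do not overlap between the defeated groups.

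Receptor lists had medians near 0 with single members apart. Ionotropic and metabotropic glutamate receptors had a median of −0.08 over 18 genes (−0.0078 with median scaling). Grin2b, an NMDA receptor subunit, differed by −0.39 ± 0.14, and Grm4, a presynaptic metabotropic receptor, by −0.51 ± 0.21, or −0.18 and −0.11 without unsusceptible pool 3. GABA receptors had a median of −0.08 over 14 genes, with Gabrd, the delta subunit of extrasynaptic receptors and abundant in thalamus, at 8.02, 7.40 and 7.50 against 9.13, 6.93 and 9.90 (−1.01 ± 0.42). Its difference was −0.39 without unsusceptible pool 3 and −1.88 (adjusted p = 0.000847) without unsusceptible pool 2. The order of the unsusceptible pools of Gabrd was that of the thalamus-enriched genes. Monoamine and acetylcholine receptors had a median of 0.05 over 32 genes. Opioid and stress peptide receptors had 14 of 18 differences above 0 (median 0.06) and 4 of 18 at p under 0.05, beside 2.64% of named genes. Without unsusceptible pool 3, 0 of 18 were higher at that p, beside 1.87%.

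Crhr1, the receptor for corticotropin-releasing factor and urocortin, was at 9.10, 9.13 and 9.16 in susceptible pools and at 9.01, 8.97 and 8.31 in unsusceptible pools. The susceptible pools lay close together above the others (0.37 ± 0.14, adjusted p = 0.895), and the difference was 0.14 without unsusceptible pool 3. Neuropeptides and granins, a list that also holds Cartpt, had a median of 0.06 over 22 genes. Genes of BDNF and neurotrophin signalling had a median of 0.02 over 20 genes. In either direction 0 of 20 had p under 0.05, beside 2.64% of named genes higher and 3.07% lower. Bdnf, the brain-derived neurotrophic factor that VTA neurons supply to the NAc, was at 8.25, 8.33 and 8.27 in susceptible and 8.19, 8.26 and 8.15 in unsusceptible pools (0.09 ± 0.13, adjusted p = 0.975). Mtor, the growth-regulating kinase downstream of its receptor, did not overlap between groups at a difference of 0.17 ± 0.09.

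Among 26 immediate early genes, which neurons switch on with activity, 16 had a difference below 0 (median −0.05) and 6 had p under 0.05, all lower in susceptible pools, beside 3.07% of named genes. The count was 2 without unsusceptible pool 3, beside 1.87%. Egr1 was at 10.79, 11.19 and 10.86 in susceptible pools and at 11.37, 10.94 and 11.70 in unsusceptible pools (−0.39 ± 0.14, adjusted p = 0.895). Egr4, of the same zinc-finger family, differed by −0.33 ± 0.13, and Nptx2, a pentraxin that clusters AMPA receptors, by −0.61 ± 0.23. In all 3 genes unsusceptible pool 2 lay inside the susceptible range. Egr1 was at −0.21, Egr4 at −0.34 and Nptx2 at −0.21 without unsusceptible pool 3. Without unsusceptible pool 2, Egr1 (−0.59, adjusted p = 0.0456) and Nptx2 (−0.96, adjusted p = 0.0473) passed limma's threshold. Klf4, a zinc-finger factor, did not overlap, at 8.35, 8.28 and 8.28 against 8.59, 8.65 and 8.41 (−0.25 ± 0.10), and its difference was −0.32 without unsusceptible pool 3.

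Circadian clock genes had 16 of 20 differences below 0 (median −0.07) and 5 of 20 lower at p under 0.05, beside 3.07% of named genes. Without unsusceptible pool 3, 10 of 20 lay above 0 and 0 had p under 0.05, beside 1.87% of named genes in either direction. Nr1d1, the clock repressor REV-ERB alpha, was at 8.92, 9.14 and 9.17 in susceptible and 9.20, 9.39 and 9.63 in unsusceptible pools (−0.33 ± 0.11, adjusted p = 0.895), without overlap. Rora, a nuclear receptor of the clock that is also abundant in thalamus, was at 11.11, 10.85 and 11.02 against 11.64, 10.60 and 12.60 (−0.62 ± 0.27). Its difference was −0.13 without unsusceptible pool 3, and −1.12 (adjusted p = 0.00851) without unsusceptible pool 2.

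Synaptic vesicle and release genes had a median of −0.07 over 32 members, and of 0.02 with median scaling. At p under 0.05 stood 3 of the 32 above 0 and 5 below, beside 2.64% and 3.07% of named genes. Pclo, the active zone scaffold piccolo, was at 11.72, 11.66 and 11.58 in susceptible and 12.01, 11.75 and 12.66 in unsusceptible pools (−0.48 ± 0.14, adjusted p = 0.871, −0.22 without unsusceptible pool 3; −0.68 with adjusted p = 0.0197 without unsusceptible pool 2). Vamp2, the vesicle SNARE synaptobrevin, differed by −0.18 ± 0.08. Kat2b, a histone acetyltransferase, was at 7.84, 7.80 and 7.83 in susceptible pools and at 7.46, 7.40 and 7.49 in unsusceptible pools (0.38 ± 0.11, adjusted p = 0.871). The 3 pools of each group were tight and the difference was 0.39 without unsusceptible pool 3, on a list of 44 chromatin regulators with a median of 0.0041. A Kat2b probe of about the same brightness gave 0.04 and a dimmer one 0.08, so the difference rests on 1 probe. Rsad2, an interferon-induced antiviral gene, was at 8.09, 8.04 and 8.05 against 7.62, 7.77 and 7.95, with the susceptible pools above the controls at 7.57 to 7.65 (0.28 ± 0.11, adjusted p = 0.895). Interferon and inflammation genes as a list had a median of 0.06 over 28 genes, with 1 higher at p under 0.05, beside 2.64% of named genes.

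The remaining lists are given by their medians, beside −0.0020 over all 17274 named genes. They were 0.0072 over 67 oxidative phosphorylation subunits and −0.03 over 54 cytosolic ribosomal proteins. With median scaling these became 0.11 and 0.09, above 0, with the median of all probes at 0.02. Of the 67 subunits, Ndufb11 (0.22 ± 0.10) and Cox6b1 (0.20 ± 0.09, 0.10 without unsusceptible pool 3) were the 2 at p under 0.05, beside 2.64% of named genes higher at that p. Heat shock proteins and chaperones had a median of 0.02 over 27 genes, with the co-chaperone gene Dnajb5 lower in every susceptible pool (−0.29 ± 0.10, −0.15 without unsusceptible pool 3). Glucocorticoid-responsive genes had −0.01 over 19 genes, Wnt pathway genes −0.0088 over 34, GABA neuron markers 0.05 over 9, medium spiny neuron markers −0.06 over 17, interpeduncular and habenular genes 0.21 over 10 and mammillary and hypothalamic transcription factors −0.04 over 11. Genes of VTA and nigra subregions had 0.07 over 13, and among them Calb1, the calbindin of a subset of dopamine neurons and of thalamus, differed by −0.46 ± 0.18, or −0.16 without unsusceptible pool 3.

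**Figure D5:**
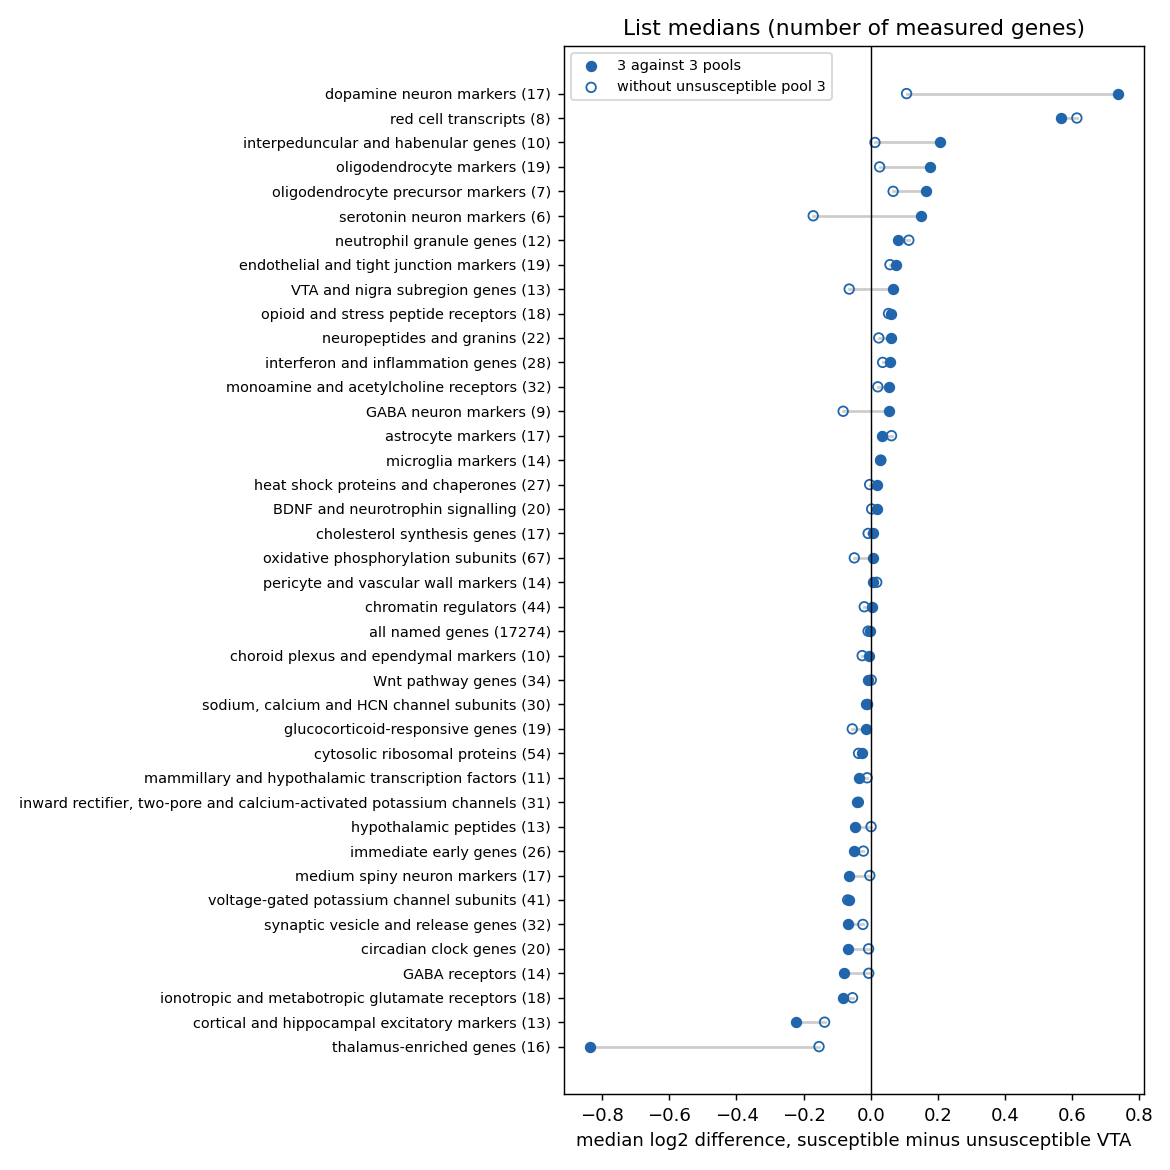
Median log2 difference, susceptible minus unsusceptible VTA, of the measured genes of 39 lists and of all named genes; filled points use all 6 pools and open points leave out unsusceptible pool 3. Dopamine markers go from 0.74 to 0.11, thalamus-enriched genes from −0.84 to −0.15 and red cell transcripts from 0.57 to 0.61.

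Whether the difference in the VTA was unequal to that in the NAc of mice of the same classes was tested as an interaction. Of 44505 probes 0 had an adjusted p under 0.05 (smallest adjusted p = 0.376), and 2145 (4.82%) had an unadjusted p under 0.05. Leaving out VTA unsusceptible pool 2 gave 8 calls. In the NAc itself 1 probe (0.00225%) passed.

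Among named probes with a mean above the median of 7.39, the 6 genes with the smallest interaction p had small differences of opposite sign in the 2 structures, each with an adjusted p of 0.962. They were Pmm2, a mannose phosphate isomerising enzyme of glycosylation (0.24 for the VTA, −0.32 for the NAc), Erap1, a peptide-trimming aminopeptidase (0.24 and −0.41), and Lig1, a DNA ligase (0.09 and −0.39). In the other direction were Abcd2, a peroxisomal fatty acid transporter (−0.16 and 0.38), Mctp1, a calcium-binding membrane protein (−0.25 and 0.25), and Hesx1, a homeobox repressor (−0.24 and 0.35). Their VTA groups did not overlap, which ranking on these same values favours. Among all named genes 4.61% had every susceptible pool above and 4.66% every susceptible pool below. Some margins were small, as for Lig1, at 9.76, 9.77 and 9.70 against 9.63, 9.68 and 9.64. For Hesx1 the values were 7.17, 7.33 and 7.42 against 7.69, 7.43 and 7.51. For Pmm2 and Mctp1 the value is not from the brightest probe, which gave −0.0027 and 0.03 in the VTA. Erap1, Lig1 and Abcd2 are given by their brightest probe and Hesx1 by its only probe, which is near the median brightness. Red cell transcripts had similar values in both structures, with medians of 0.57 (VTA) and 0.53 (NAc), and the interaction of Hbb-bs was −0.06 (adjusted p = 0.995). For Th the interaction was 1.18 (adjusted p = 0.962).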

How the data were processed

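Total RNA from pooled mouse VTA and NAc tissue was hybridised to 18 one-colour arrays. The per-array tables deposited by the authors hold 1 scanner intensity per probe, from 61.9 to 73427.2, with no background or detection column. The software that read the arrays, like any background step, is not given in the sources used here. A deposited table of the whole series, made by the authors, holds normalised intensity values and was an alternative. The submitters' processing notes name affy. Of 44547 probes, 42 were empty and 44505 were tested. Intensities were taken to log2 and quantile normalised over 18 arrays, and a mean per group was fitted with limma 3.58.1 in R 4.3.3 (intensity trend, two-sided, Benjamini-Hochberg over all probes, threshold 0.05). With no background subtraction, differences of dim probes are understated. The platform table names 1 gene for 28482 probes, several for 11 and none for 16012, so unnamed probes are not described. Probe coordinates are left out, as the probes come with no stated build. Promoters were matched by symbol for all 5 genes shown, and 1 item is not reported here.

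Genes were named by a rule: in each direction the 15 bright named genes of smallest p, 4 list members at most, by p, from each of 38 lists (942 entries, 823 measured), 3 interaction genes a direction, and 18 genes taken in any case. A gene of a list is represented by its brightest probe. The members and lists were chosen with earlier results of these data known, and a list of 16 thalamus-enriched genes was added after values had been seen. Lists have no test. The number of arrays limits the precision: each group is 3 pools of 4 animals. Standard errors and p-values rest on 1 spread per probe, shared over all groups of the 18 arrays, NAc included. They do not measure the spread of the 6 pools compared, which can be unequal between groups. For Th the standard deviation was 0.11 in susceptible and 1.78 in unsusceptible VTA pools, so its standard error understates the spread of the latter. No 2 arrays held identical values. The fit was tested on simulated data with independent normal noise, of the shared limma spread of each probe and equal in all groups. There 72% of 50 probes with a log2 difference of 0.5 and 100% of 50 with a difference of 1 were recovered for this comparison over 44505 probes, with 6 false calls. No outlying pool and no shift shared between genes was simulated, so these shares do not give the recovery in the real arrays.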

Additional observations from a re-analysis of the deposited data

How the results depend on the processing

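The count of calls between susceptible and unsusceptible VTA was 0 with median scaling, with the VTA arrays normalised and fitted alone, from the authors' table, after normexp with an offset of 50, with bright probes only, in a fit of 6 arrays only, without an intensity trend, with array weights and without the 3 arrays that stood apart in earlier work. Leaving out 1 pool at a time gave 0 to 139 calls, and 0 to 8 for the interaction with the NAc, both highest without unsusceptible pool 2 (139 and 8). At an unadjusted p under 0.05 the counts ran from 1355 (median scaling) to 3293 (without unsusceptible pool 2). Same-numbered susceptible and unsusceptible VTA pools showed no clear pairing, with correlations of their deviations of 0.0993, 0.0974 and −0.0802. So few pairs cannot exclude handling shared by replicate number, and no such correlation was taken between VTA and NAc pools. The fit with the replicate number as a block gave 0 calls (smallest adjusted p = 0.800). Of 1598 values of 100 named genes under 16 alternatives, 1560 kept direction and side of the threshold, 28 passed the threshold (all without unsusceptible pool 2) and 10 changed sign, where the cause was not tested. Those were Slc6a4 (−0.21 with array weights, −0.70 without the 3 arrays and, leaving out 1 pool at a time, −0.70 to 0.72, below 0 without susceptible pools 1 and 2 and unsusceptible pool 3), Tph2 (−0.95 without the 3 arrays, −0.95 to 1.74 over pools left out, below 0 without unsusceptible pool 3), Mbp (−0.020 without the 3 arrays, −0.020 to 0.042 over pools left out) and Kcnk4 (−0.16 to 0.011 over pools left out, above 0 without susceptible pool 1). Of 663 list medians, 28 moved by more than the spread between pools. With no detection column, no probe is called absent.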

Other observations

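A few probes were near background in some pools and bright in others, and they have the largest differences of all. They fall outside the naming rule and were chosen after their values were seen. A probe with no listed gene was at 13.27, 13.87 and 7.48 in susceptible VTA pools and at 7.30, 7.22 and 7.66 in unsusceptible VTA pools. The same probe was at 7.41, 12.86 and 7.37 in the VTA control pools and bright in pool 2 of the susceptible and unsusceptible NAc, at 13.77 and 13.87. A probe of Krr1 was at 13.19 in susceptible VTA pool 1, 12.60 in VTA control pool 2 and 12.86 in susceptible NAc pool 2, and between 7.10 and 7.31 in the other VTA pools. A second probe with no listed gene was at 7.13 in unsusceptible VTA pool 1 and between 13.14 and 14.01 in the other 5 defeated VTA pools. A further one was at 13.06 in unsusceptible VTA pool 2 alone, against 6.58 to 7.16 in the other 8 VTA pools. In none of these 4 probes were the susceptible and unsusceptible VTA pools apart.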
